A study of Macaca fascicularis with 2 samples.

Results

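The notochord and chondrogenic transcription factors described here were chosen by name, as *TBXT*, *FOXA1*, *FOXA2*, *NOTO*, *SOX9*, *SOX5* and *SOX6*. Of these 7 genes, 6 were among the 21371 genes counted, and *FOXA1* was not analysed here. Their reads were followed in single cells of femoral articular cartilage (AC) and of the lumbar disc's nucleus pulposus (NP), taken from 2 male cynomolgus monkeys of wild-type genotype aged 3 years. The labels list 3 tissue samples, 2 of AC and 1 of NP, and all cells were pooled into 1 library by TAS-seq, a bead-based single-cell method in which each cell's cDNA carries the barcode of its bead. A tag on the cell surface marked the sample of origin, and the cells carried 4 tags, A951 to A954. The labels do not pair the tags with the tissues, so the values are given by tag and never by tissue. The files hold reads and not molecules, so the intervals below cover counting error only, and no test was made. The tags separate samples within the library, but 3 listed samples for 4 tags left it unknown which tags are separate samples, so the tags were not treated as replicates and comparisons are also given within tags.

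TBXT (brachyury) is a T-box factor that specifies the notochord, the embryonic rod whose cells form the NP. FOXA2 is a pioneer factor of the node, notochord and floor plate and acts upstream of *SHH*, and NOTO is a homeobox factor of the node and early notochord. SOX9 is the master regulator of cartilage, and SOX5 and SOX6 bind with it at the enhancers of cartilage matrix genes such as *COL2A1* and *ACAN*. The notochordal sheath also depends on SOX9, SOX5 and SOX6 in the embryo.

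Notochordal cells were taken as cells with 5 or more reads of *KRT19*, the keratin used as a notochordal marker, and all remaining cells are called other cells. Of 5653 cells kept, 363 were notochordal and 5290 were other. The cutoff fell in a sparse stretch of the distribution, since only 8 cells had 4 *KRT19* reads and only 8 had 5 to 9, whereas 301 had 50 or more. Tag A952 held 271 notochordal cells (24.1% of its cells), A951 held 76 (7.64%), A954 held 10 (0.464%) and A953 held 6 (0.436%). The median depth was 172935 reads and 3854 genes per notochordal cell against 199950 reads and 3825.5 genes per other cell.

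The label was checked against the other notochordal markers. *CDH2*, the neural cadherin, had 108 rpm (reads per 1000000 pooled reads) in notochordal cells and 0.985 rpm in other cells, and *NCAM1*, a neural adhesion molecule, had 491 and 22.7 rpm. *KRT8*, *KRT18* and *CD24* were not analysed here. *CDH2* had 115 rpm in the notochordal cells of A951, 114 rpm in A952 and 69.9 rpm in A953, but 1.89 rpm in the 10 notochordal cells of A954. Those 10 cells had 9778 rpm of *COL2A1* and 4187 rpm of *DCN*, a small proteoglycan, against 1329 and 196 rpm in the notochordal cells of A952. *NCAM1* had 141 rpm in them, with 5 reads or more in 4 of the 10 cells. The 6 notochordal cells of A953 also had more of both than those of A952, with 5077 rpm of *COL2A1* and 784 rpm of *DCN*. *MGP*, the matrix Gla protein, an inhibitor of calcification, had 6811 rpm in them and 6933 rpm in the 10 cells of A954, against 215 rpm in the notochordal cells of A952 and 10630 rpm in the other cells of A953. The notochordal label is therefore weaker in A954, matrix genes are also high in A953, and the levels of the factors are also given by tag.

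Among the 6 factors, *TBXT* and *SOX9* were higher in notochordal cells by a log2 ratio of 1 or more, *FOXA2* was lower by as much, *SOX5* and *SOX6* lay within these bounds, and *NOTO* had too few reads for a ratio. Over all 9849 genes with a read in 10% of the cells of 1 side, 23% passed this bound upward and 10.9% downward, 34% in all, and the median log2 ratio was 0.28. Of the genes past the bound, 67.8% were higher, against 53.1% after scaling by the median ratio. Only *TBXT*, *SOX9*, *SOX5* and *SOX6* passed that filter on low values. Relative to the median gene, the log2 ratio was 8.92 for *TBXT*, 1.36 for *SOX9*, 0.23 for *SOX6* and −0.66 for *SOX5*. The pooled levels of the 4 tags did not overlap between notochordal and other cells for *TBXT* and *SOX6*, which were higher in notochordal cells, and for *FOXA2*, which was lower. For *SOX6* this rested on single cells: with the notochordal cell with most *SOX6* reads left out of each tag, A953 had 37.5 rpm and A954 9.94 rpm, within and below the range of the other cells. Over all genes tested, 8.45% were higher and 9.1% lower without overlap of the tags, and A953 and A954 rest on 6 and 10 notochordal cells.

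**Figure D1:**
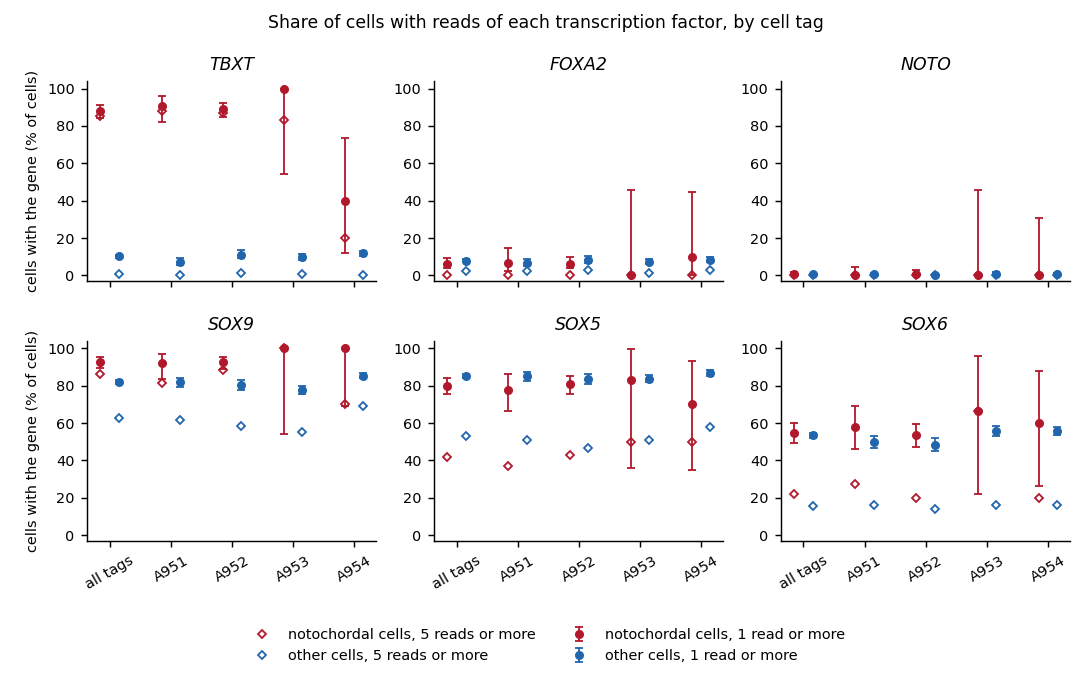
Share of cells with reads of each factor (percent of cells) in notochordal cells and other cells, over all tags and by tag. Filled points are cells with 1 read or more with their exact 95% intervals and open diamonds are cells with 5 reads or more. *TBXT* lies at 88.2% against 10.3%, while *FOXA2* and *NOTO* stay below 11% in every tag and *SOX9*, *SOX5* and *SOX6* are found in both groups.

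*TBXT* had a read in 320 of 363 notochordal cells, or 88.2% (exact binomial 95% interval, 84.4 to 91.3), and in 546 of 5290 other cells, or 10.3% (9.51 to 11.2). Most of these other cells had a single read, 405 of the 546. With 5 reads required, 85.4% (81.3 to 88.9) of the notochordal cells and 0.605% (0.414 to 0.853) of the other cells were positive. The source of the single reads was not tested. With every cell thinned to 50000 reads, the shares with a read were 87.9% of 347 notochordal cells and 3.00% of 5099 other cells.

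The level of *TBXT* was 784 rpm (exact Poisson 95% interval, 778 to 791) in notochordal cells and 1.33 rpm (1.27 to 1.39) in other cells, a log2 ratio of 9.21. By tag, the notochordal level was 1005 rpm in A951, 773 rpm in A952, 431 rpm in A953 and 221 rpm in A954. The highest level in other cells was 5.30 rpm, in A952. In A954 only 4 of the 10 notochordal cells had a *TBXT* read, and 1 cell held 554 of their 584 reads. Without that cell the level of A954 was 12.4 rpm, against 0.709 rpm in its other cells, and the median notochordal cell of A954 had none. Without A954, 89.5% of the notochordal cells had a *TBXT* read.

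Positive notochordal cells carried many *TBXT* reads. The median was 135 reads per positive cell, 187 cells had 100 reads or more and these held 90.1% of the *TBXT* reads of the group. Only 10 notochordal cells had 1 to 4 reads, whereas 43 had none. Notochordal cells with few *TBXT* reads were thus rarer than those with none.

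**Figure D2:**
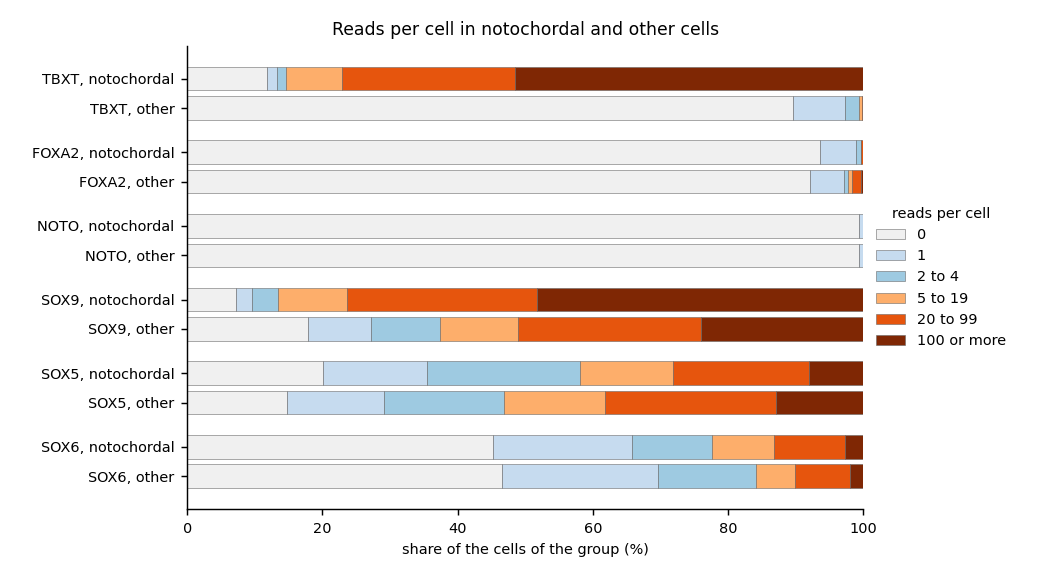
Share of the cells of each group (percent) by the number of reads of the gene in the cell, for notochordal cells (363 cells) and other cells (5290 cells). Dark segments are cells with 100 reads or more, 51.5% of notochordal cells for *TBXT* and 0.0567% of other cells.

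A small set of other cells also carried *TBXT*. These were 32 cells with 5 reads or more, 11 in A952, 10 in A954, 9 in A953 and 2 in A951, and 3 cells with 100 reads or more held 34.3% of all *TBXT* reads of the other cells. The pooled level in the *TBXT*-positive cells was 385 rpm in A952 but 26.9 rpm in A954 and 23.4 rpm in A953. Of these 32 cells, 25 had no *KRT19* read at all. *SHH*, the hedgehog ligand of the notochord, had 5 reads or more in 3 of the 32 cells and in none of the other 5258 cells, which allows a share of up to 0.0571% (3 cells of 5258). *APOE*, an apolipoprotein abundant in notochordal cells, had a median of 10.9 rpm in the 32 cells against 9.19 rpm in the other 5258, and *COL2A1* had 17774 against 20184 rpm as a pooled level. A median does not show a minority of cells high in *APOE*, so these values do not describe each of the 32 cells.

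*FOXA2* showed the opposite order. A read was found in 23 of 363 notochordal cells, or 6.34% (4.06 to 9.36), and in 414 of 5290 other cells, or 7.83% (7.12 to 8.58), and single reads made up 19 of the 23 notochordal cells. With 5 reads required, 1 notochordal cell remained (0.275%, 0.00697 to 1.53), a cell of A952 with 38 reads, against 120 other cells (2.27%, 1.88 to 2.71). The intervals of the shares with 1 read overlapped, and those with 5 reads or more stood apart only in the pooled cells. In A952 the shares with 5 reads or more were 0.369% (0.00934 to 2.04) and 2.81% (1.81 to 4.15). In A951 they were 0% (0 to 4.74) and 2.18% (1.33 to 3.34), so the intervals overlapped within both tags. At equal depth a read was found in 1.73% (0.637 to 3.73) of notochordal cells. The share of other cells was then 3.84% (3.33 to 4.41), and these intervals also overlapped.

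The level of *FOXA2* was 0.840 rpm (0.645 to 1.07) in notochordal cells and 5.50 rpm (5.37 to 5.63) in other cells, a log2 ratio of −2.71. In other cells the level was 8.29 rpm in A952, 6.06 rpm in A954, 5.69 rpm in A951 and 2.94 rpm in A953. The notochordal level was at most 1.01 rpm in any tag, with 57 reads in A952, 5 in A951, 1 in A954 and 0 in A953. Of the 63 notochordal reads, 38 came from the 1 cell with many reads. *FOXA2* did not pass the filter on low values, and on the mean over cells of log2(rpm + 1) the difference was only −0.14.

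*NOTO* was nearly absent. It had 2 reads in 2 notochordal cells (0.551%, 0.0668 to 1.98), both in A952, and 65 reads in 34 other cells (0.643%, 0.446 to 0.897), of which 32 reads lay in 1 cell of A954. The levels of 0.0267 rpm (0.00323 to 0.0963) and 0.0513 rpm (0.0396 to 0.0654) had overlapping intervals. A difference was not detectable at this depth.

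*SOX9* was found in most cells of both groups. A read was detected in 92.8% (89.7 to 95.3) of notochordal cells and 82.1% (81.0 to 83.1) of other cells, and 5 reads or more in 86.5% (82.5 to 89.8) and 62.7% (61.3 to 64.0). With every cell at 50000 reads the shares were 91.1% and 71.2%. The gap was therefore also present at equal depth.

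The level of *SOX9* was 1071 rpm (1063 to 1078) in notochordal cells and 343.5 rpm (342 to 345) in other cells, a log2 ratio of 1.64, and 11.4% of the genes tested had a higher ratio. In notochordal cells it was 1229 rpm in A952, 1063 rpm in A953, 557 rpm in A951 and 336 rpm in A954, against 309, 263, 387 and 387 rpm in other cells of the same tags. The tags therefore overlapped between the groups, with log2 ratios of 1.99 in A952, 2.02 in A953, 0.53 in A951 and −0.20 in A954. Without A952, which holds 271 of the 363 notochordal cells, the log2 ratio was 0.76 and *SOX9* no longer passed the bound. Within A951, 26.4% of the genes tested were higher and 17% lower by a log2 ratio of 1 or more (43.4% in all), and within A952, 24.9% were higher and 12.3% lower (37.2% in all).

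In the pooled cells *SOX5* was slightly lower and *SOX6* slightly higher in the notochordal group, each by less than the bound. A *SOX5* read was detected in 79.9% (75.4 to 83.9) of notochordal and 85.3% (84.3 to 86.2) of other cells, at 127 rpm (124 to 129) and 165 rpm (164 to 166), a log2 ratio of −0.38. By tag, *SOX5* ranged from 111 rpm in A954 to 259 rpm in A953 among notochordal cells and from 153 to 171 rpm among other cells, so the groups overlapped, with log2 ratios of −0.28 in A951, −0.36 in A952, 0.69 in A953 and −0.61 in A954. A *SOX6* read was detected in 54.8% (49.5 to 60.0) and 53.5% (52.1 to 54.9) of the cells, at 48.3 rpm (46.7 to 49.9) and 34.0 rpm (33.7 to 34.3), a log2 ratio of 0.51. Its notochordal level was lowest in A952, with 44.9 rpm, and highest in A953, with 82.4 rpm, while that in other cells lay between 31.0 and 41.0 rpm. Within tags its log2 ratio was 0.39 in A951 and 0.46 in A952, and it was 1.21 in A953 and 1.02 in A954, where 1 cell held most of the reads, 126 of 197 and 143 of 166. Without the cell with most reads the log2 ratios were 0.02 in A951, 0.34 in A952, 0.07 in A953 and −1.64 in A954, so that the order turned in A954. Reads were counted over whole genes, introns included, and *SOX5* and *SOX6* are long genes, so a read in a cell need not come from spliced RNA.

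**Figure D3:**
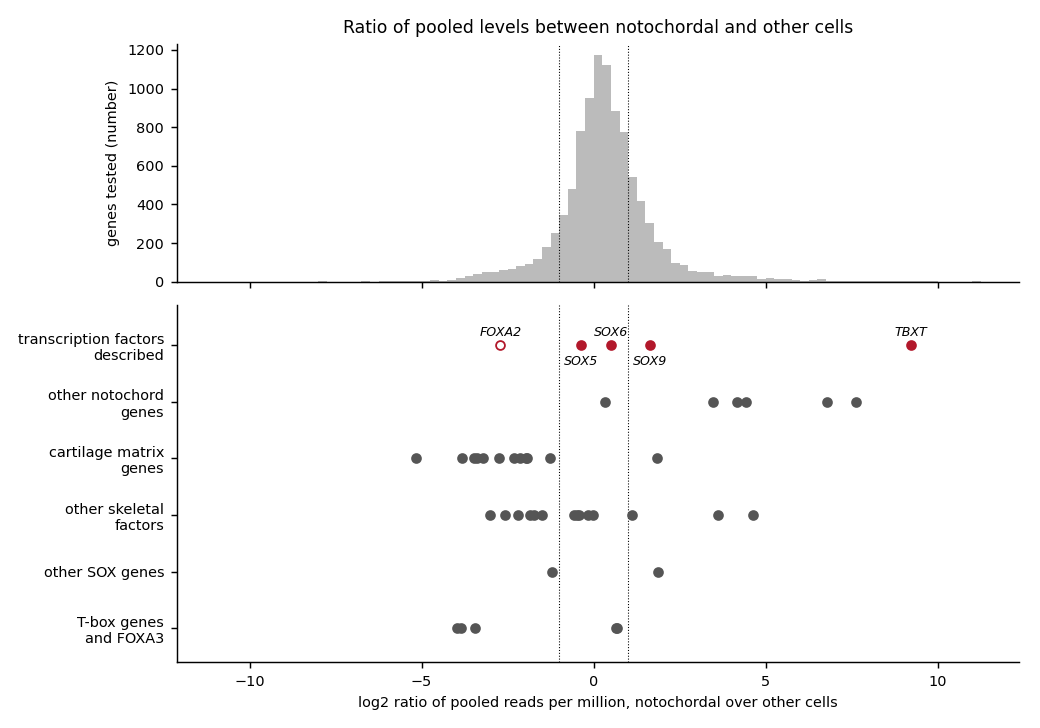
Top, number of genes by the log2 ratio of pooled rpm in notochordal over other cells (9849 genes, *KRT19* left out), with dotted lines at a log2 ratio of 1 in each direction. Bottom, the same ratio for the factors described (red, open for *FOXA2*, which did not pass the filter on low values) and for genes of 5 lists that passed it (grey). *TBXT* lies at 9.21 and *SOX9* at 1.64, while 11 of 12 cartilage matrix genes lie below −1.

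Genes around these factors were described from lists, each read against the 23% of genes higher and 10.9% lower. Of the other notochord genes, 7 of 12 were among the genes counted and 6 passed the filter, of which 5 were higher, 0 lower and the median log2 ratio was 4.30. *SHH* had 93.3 rpm in notochordal and 0.475 rpm in other cells (log2 ratio 7.62), *CDH2* had a ratio of 6.78, *NCAM1* of 4.44, *CA3* of 4.17 and *CA12*, like *CA3* a carbonic anhydrase, of 3.46. The exception was *CHRD*, the BMP antagonist chordin, with 25.7 and 20.6 rpm (log2 ratio 0.32). *SHH* varied with the tag, from 116 rpm in A952 and 32.2 rpm in A951 to 3.77 rpm in A953 and 0 reads in the 10 cells of A954. *SHH* and *CA3* passed the filter only through notochordal cells, where they are high, so the count of the list is a description and not support.

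Cartilage matrix genes known as targets of SOX9, SOX5 and SOX6 were mostly lower in notochordal cells. Of 12 that passed the filter, 11 were lower, 1 was higher and the median log2 ratio was −2.53. *COL2A1*, the type II collagen, had 1912 rpm in notochordal and 20167 rpm in other cells (log2 ratio −3.40), *COL9A1*, a type IX collagen chain, had a ratio of −3.82. *MATN4* passed the filter only through other cells. *UCMA*, a small secreted cartilage protein, had the lowest ratio, −5.15. The gene that was higher was *ACAN*, which encodes aggrecan, with 13976 and 3921 rpm (log2 ratio 1.83). *SOX9* and *ACAN* were thus higher in notochordal cells in the same pooled comparison in which the collagen targets were lower, and in A954 neither was higher, with log2 ratios of −0.20 for both.

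Of the other skeletal transcription factors, 14 passed the filter, of which 3 were higher and 6 lower, with a median log2 ratio of −0.54. *BARX2*, a homeobox factor, had 66.5 rpm in notochordal and 2.67 rpm in other cells (log2 ratio 4.64), and *RUNX3*, a runt factor of maturing cartilage, had a ratio of 3.60. The third was *RUNX2*, a regulator of hypertrophy and bone, with 1.11 overall but −1.32 in A951. Among the lower ones, *ERG*, an ETS factor of articular chondrocytes, had 18.5 rpm in notochordal and 148 rpm in other cells. *NFATC1*, which marks articular progenitors, had 474 and 528 rpm (log2 ratio −0.16), with the same ratio in A952 but 211 and 576 rpm in A951 (−1.45). *BARX2* passed the filter only through notochordal cells and *BARX1* only through other cells, each the group where it is high.

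Few relatives of the described factors were abundant enough to compare. Of 9 other *SOX* genes counted, 2 passed the filter, each only through the group where it is high, so their directions were set by the filter and are no result. *SOX30* had a log2 ratio of 1.86 (3.12 in A951 and 0.64 in A952) and *SOX8* of −1.22 (−5.04 in A951 and −0.72 in A952). Of 16 genes in the T-box and *FOXA3* list, 5 passed, of which 0 were higher and 3 lower, namely *TBX15* (−3.98), *FOXA3* (−3.84) and *TBX4* (−3.45), the last of which passed only through other cells. *TBXT* was the only T-box gene among those tested that was higher by the bound in notochordal cells, and *TBX19*, its closest relative, had 50.2 and 31.6 rpm (log2 ratio 0.67). *FOXA3*, the relative of *FOXA2*, had a read in 46.4% (45.1 to 47.8) of other cells at 114 rpm (113 to 115) and in 30.6% (25.9 to 35.6) of notochordal cells at 7.94 rpm (7.32 to 8.61).

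Cell type markers were also counted in both groups. Both testable notochordal markers were higher (median log2 ratio 5.61), and of 5 chondrocyte markers *ACAN* was higher and 4 were lower (median −3.21). Of the markers that passed the filter, 2 of 3 smooth muscle and 1 of 1 epithelial genes were higher, and 1 of 3 immune, 0 of 1 endothelial and 1 of 1 osteoblast genes were lower. The lower immune gene, *CD74*, and the osteoblast gene, *IBSP*, passed only through other cells. The 3 smooth muscle markers summed to 73.8 rpm in notochordal and 11.6 rpm in other cells, with *ACTA2*, the smooth muscle actin, at 64.6 rpm. *ACTA2* was lower in notochordal cells of A951 (log2 ratio −2.53) and higher in those of A952 (4.46). *RGS5*, the other smooth muscle gene past the bound, had a log2 ratio of 1.35 pooled but 0.19 in A951 and 0.86 in A952, within the bound. The 5 immune markers summed to 19.9 and 46.6 rpm, but to 105 rpm in the 10 notochordal cells of A954 (*CD68* 78.4 rpm) against 31.9 rpm in its other cells. The 4 endothelial markers summed to 4.88 and 2.49 rpm, the 2 epithelial markers to 23.5 and 1.68 rpm, nearly all *CDH1*, and the 2 osteoblast markers to 3.28 and 50.05 rpm. Of these defining markers, *AIF1* was at 0 in notochordal cells. The 4 proliferation markers summed to 33.2 and 17.1 rpm, with 588 rpm in the 6 notochordal cells of A953, and *ALAS2* of the red blood list had 1 read in notochordal cells. The part of these cells in the values above was not tested.

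Co-detection was then counted in single cells. *TBXT* and *SOX9* were detected together in 300 of 363 notochordal cells, or 82.6%, against 81.8% as the product of their separate shares. *TBXT* and *SOX5* were found together in 72.5%, against a product of 70.4%, and *TBXT* and *SOX6* in 50.1%, against 48.3%. With every cell at 50000 reads the shares were 80.1%, 54.8% and 30.5%, against products of 80.0%, 54.0% and 30.1%. With *TBXT* in most cells, a joint share can differ little from the product, so the shares within cells with and without *TBXT* were compared as well. *SOX5* was detected in 82.2% (77.5 to 86.2) of notochordal cells with a *TBXT* read and 62.8% (46.7 to 77.0) of the 43 without, *SOX6* in 56.9% (51.2 to 62.4) and 39.5% (24.98 to 55.6), and *SOX9* in 93.8% (90.5 to 96.1) and 86.0% (72.1 to 94.7). All 3 were detected in 47.1% (41.4 to 52.8) of notochordal cells with 5 or more *TBXT* reads and 23.3% (11.8 to 38.6) of those with none. The cells without *TBXT* were shallower. With every cell at 50000 reads, the shares with and without a *TBXT* read were 62.3% (56.6 to 67.8) and 54.8% (38.7 to 70.2) for *SOX5*, 34.8% and 31.0% for *SOX6*, and 91.1% and 90.5% for *SOX9*, with overlapping intervals. All 3 were then detected in 21.1% (16.6 to 26.1) of the cells with 5 or more *TBXT* reads and 13.2% (4.41 to 28.1) of those with none, whose intervals also overlapped.

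In all, 86.8% of notochordal cells had *TBXT* with at least 1 of the 3 *SOX* genes, and 40.8% had *TBXT* with all 3. By tag, the share with *TBXT* and a *SOX* gene was 89.5% in A951, 87.5% in A952, 100% of 6 cells in A953 and 40.0% of 10 cells in A954. In other cells a *SOX* read was found in 96.8%, and all 3 genes in 41.9% (40.6 to 43.3), close to the 43.5% (38.4 to 48.8) of notochordal cells. With 5 reads required, 79.3% of notochordal cells had *TBXT* with a *SOX* gene, and at 50000 reads per cell all 3 *SOX* genes were found in 19.9% (15.8 to 24.5) of notochordal and 13.8% (12.9 to 14.8) of other cells.

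**Figure D4:**
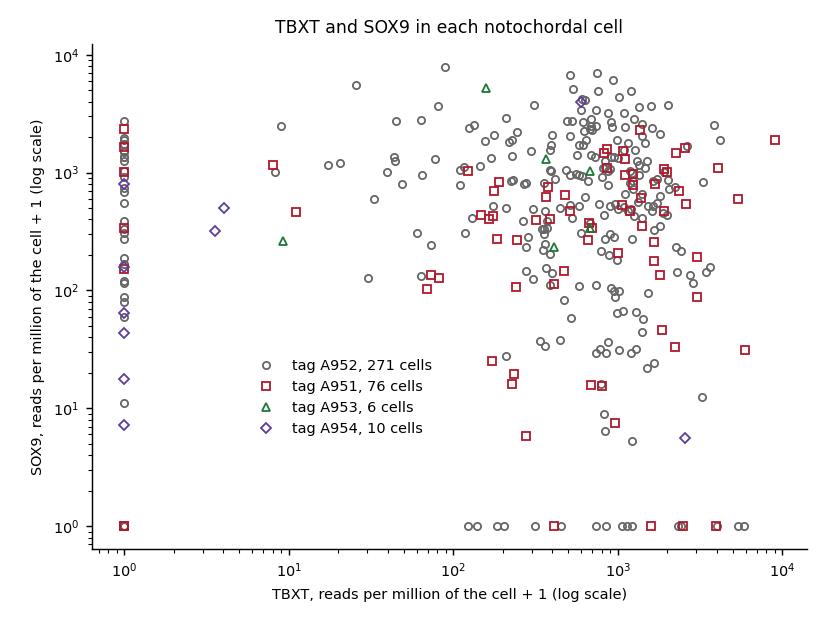
*TBXT* against *SOX9* in each of the 363 notochordal cells, in rpm of the cell with 1 added, on log axes and marked by tag. Points on the left edge are the 43 cells with no *TBXT* read, and Pearson's r of the 2 genes was −0.02 over 347 cells at 50000 reads.

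The amounts of *TBXT* and of the *SOX* genes were then set against each other from cell to cell. Over the 347 notochordal cells thinned to 50000 reads, Pearson's r of log2(reads + 1) was −0.02 for *TBXT* with *SOX9*, 0.07 with *SOX5* and 0.01 with *SOX6*. Within the tags, r with *SOX9* was −0.03 over 73 cells of A951 and −0.04 over 259 cells of A952, r with *SOX5* was −0.08 and 0.15, and r with *SOX6* was 0.13 and −0.03. No r passed 0.15 in size, in the pooled cells or in these tags, and A953 and A954 held too few cells for a value. All cells share 1 library, and these values are descriptions without a test.

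The 43 notochordal cells without *TBXT* reads were set beside the 310 with 5 or more. They were shallower, with medians of 120635 against 186370 reads and 2961 against 4061 genes per cell, and were spread over A952 (30 cells), A951 (7) and A954 (6). Over 9900 genes, 24.8% were higher and 10.2% lower by a log2 ratio of 1 or more in the *TBXT*-positive cells, 35% in all, and the median was 0.26. *SOX9* had 1120 rpm with *TBXT* and 697 rpm without (log2 ratio 0.68), *SOX5* had 134 and 77.3 rpm (0.79) and *SOX6* had 49.1 and 34.4 rpm (0.51), so none of the 3 passed the bound in the pooled cells. Within tags *SOX5* had 151 against 50.1 rpm in A951 (1.59), past the bound, and 124 against 75.5 rpm in A952 (0.72). The share of all genes past the bound was not counted within tags for this comparison. The value of A951 is therefore a description and no result about *SOX5*. The order of *SOX9* differed between the tags, with 1266 against 756 rpm in A952 (0.74) and 514 against 1023 rpm in A951 (−0.99), where 7 cells lacked *TBXT*.

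Other notochordal genes were measured in the same cells. The median cell had 7063 rpm of *APOE* without and 10832 rpm with *TBXT*. As a pooled level within tags, *APOE* had 3824 against 7392 rpm in A951 (log2 ratio 0.95) and 11388 against 11955 rpm in A952 (0.07), so the gap was hardly seen in A952. *CDH2* was lower without *TBXT*, with 33.8 against 120 rpm pooled (log2 ratio 1.82), 2.04 (2 reads) against 127 rpm in A951 and 50.3 against 120 rpm in A952 (1.26). *CDH2* was thus nearly absent from the 7 cells of A951 without *TBXT*. In the pooled cells *NCAM1* had 387 against 506 rpm but 57.5 against 310 rpm in the median cell. The pooled level of *COL2A1* was 7269 rpm without and 1269 rpm with *TBXT*, and that of *DCN* was 1711 and 169 rpm, but the median cell had 574 and 415 rpm of *COL2A1* and 133 and 99.7 rpm of *DCN*. The pooled gap in these matrix genes therefore came from a minority of the 43 cells. At 50000 reads per cell, *SOX9* was detected in 89.5% (75.2 to 97.1) of the cells without *TBXT* and 91.0% (87.1 to 94.0) of those with it.

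**Figure D5:**
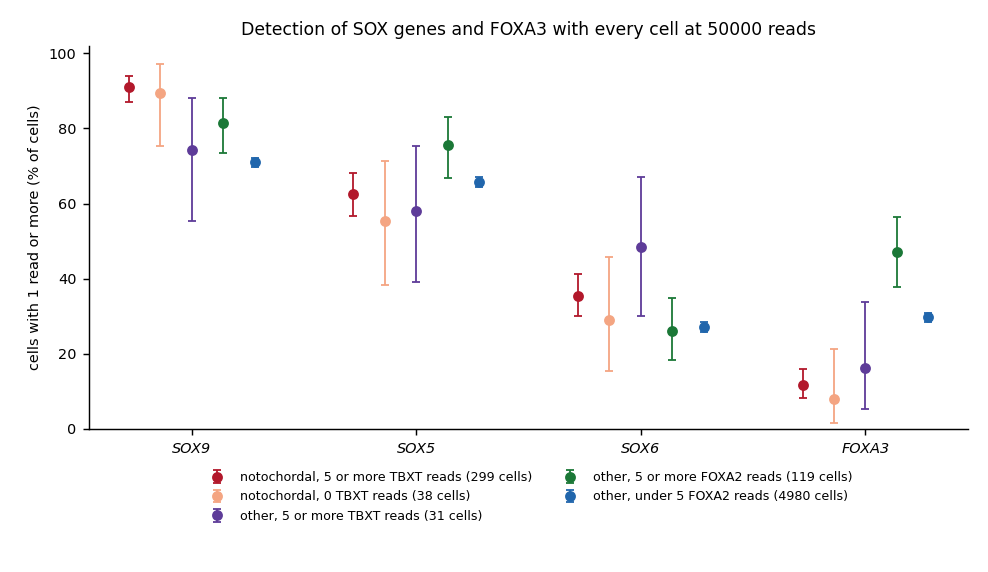
Share of cells with a read of *SOX9*, *SOX5*, *SOX6* and *FOXA3* (percent of cells, exact 95% intervals) with every cell thinned to 50000 reads, for notochordal cells with 5 or more or 0 *TBXT* reads and for other cells with 5 or more *TBXT* reads, with 5 or more *FOXA2* reads and with fewer. The *SOX* shares of notochordal cells with and without *TBXT* overlap, and *FOXA3* is at 47.1% in other cells with *FOXA2* against 29.7% in the rest.

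The 120 other cells with 5 or more *FOXA2* reads were described as a set chosen after its values were seen. They were 2.81% (1.81 to 4.15) of the other cells of A952, 2.75% (2.10 to 3.53) of A954, 2.18% (1.33 to 3.34) of A951 and 1.24% (0.724 to 1.98) of A953, so every tag held some. *FOXA2* reads were unevenly spread over other cells, with 263 cells at 1 read, 31 cells at 2 to 4 reads, 33 at 5 to 19, 68 at 20 to 99 and 19 at 100 or more. The 120 cells held 6627 of the 6960 *FOXA2* reads of other cells at a pooled level of 194 rpm, and were deeper than the rest, with medians of 248970 against 198976 reads per cell.

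These cells were drawn from cells that the *KRT19* rule had already set apart from notochordal cells, so their *TBXT* level is a description. *TBXT* had a read in 10.8% of them and 10.3% of the remaining other cells, at 0.497 and 1.35 rpm, and the latter level rests largely on the 32 cells with 5 or more *TBXT* reads. *SOX9* had 456 and 340 rpm (log2 ratio 0.42), *SOX5* had 180 and 165 rpm (0.13) and *SOX6* had 32.1 and 34.0 rpm (−0.08), against 4.17% of 10029 genes higher and 6.55% lower by the bound (10.7% in all). *FOXA3* was higher by the bound, with 243 and 110 rpm (log2 ratio 1.14), and at equal depth was detected in 47.1% (37.8 to 56.4) of them against 29.7% (28.4 to 31.0). *MEF2C*, a regulator of chondrocyte hypertrophy, had 99.3 and 53.2 rpm (log2 ratio 0.90) and *COL2A1* 25689 and 20013 rpm (0.36). *PRG4*, the lubricin of the cartilage surface, was lower, with 5622 and 12825 rpm (−1.19). *COL1A1*, the type I collagen of fibrous tissue, had a lower pooled level, with 70.8 and 597 rpm (−3.08). A read of *COL1A1* was nevertheless found in 85% of these cells and 78.7% of the remaining other cells, at unequal depth.

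The genes whose reads followed *TBXT* most closely were listed by Pearson's r of log2(reads + 1) over 5446 cells at 50000 reads, among 6825 genes with a read in 10% of the cells. They were *C3orf49* (0.83), *TNNT2*, the cardiac troponin T (0.78), *SRGN*, the proteoglycan serglycin (0.78), *LYST*, a lysosomal trafficking regulator (0.77), and *APOE* (0.72). Cells with and without notochordal identity stand apart in this set, and within the 347 notochordal cells the values were lower. There *LYST* (0.37), *LGALS3*, the lectin galectin-3 (0.32), *SEMA3B*, a secreted semaphorin (0.31), *APOE* (0.31) and *WNK1*, a kinase of ion transport (0.31), came first among 7466 genes.

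For *SOX9* in 5099 other cells, the most similar of 6746 genes were *SLC20A1*, a phosphate transporter (0.21), *ERF*, an ETS repressor (0.20), *FOSB* (0.19) and *NR4A1* (0.18), both immediate early genes, and *WWP2*, a ubiquitin ligase known as a SOX9 target (0.18). *SOX9* with *SOX5* had an r of 0.11 in the same cells and with *SOX6* of 0.03. These values in other cells are weak and no finding. Among the 347 notochordal cells, for which *SOX9* was ranked after the values were seen, the highest r were those of *MAFF*, a small MAF factor (0.39), *MYADM* (0.38), *MAP2K3*, a kinase of the p38 pathway (0.38), *SLC20A1* (0.38) and *KLF10*, a TGF-beta inducible factor (0.35). In the same cells *SOX9* had an r of −0.09 with *SOX5* and −0.10 with *SOX6*.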

How the data were processed

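Gene expression reads of 1 pooled TAS-seq library were used, and its tag library was not. Alignment by the authors used HISAT2 2.2.1, featureCounts 2.0.2 assigned primary alignments to whole genes by strand, and velocyto then counted spliced and unspliced reads. How these steps shared out reads of overlapping or similar genes was not tested. The deposited values are raw counts of reads, spliced and unspliced together, for each gene in each cell, with no molecular identifiers and no normalization by the authors. Amplified copies are counted, so 1 molecule can give many reads. The genome build is not given in the sources used here, so no coordinates or sequences are printed. A second matrix with 1358 columns, which the labels do not list, was not used.

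Cells with 1 of the 4 tags, 200 to 9000 genes and under 5% mitochondrial reads (13 genes) were kept, 5653 of 5723 columns. The reads per cell of tagged cells ranged from 24907 to 1649566. No doublet caller was run beyond the authors' tags, and 42 doublets and 7 untagged cells were left out. Levels are pooled rpm (reads per 1000000 reads), shares have exact binomial (Clopper-Pearson) and levels exact Poisson 95% intervals. Beside a count of 0 the limit given is 3 cells of the total. A group with fewer than 3 reads was set to 3, and no ratio is given for a factor with 3 reads or fewer in a group. Cells are not replicates, so no p-value is given. The ratio was tried on simulated data for notochordal against other cells, with 199 of 11718 genes changed by a log2 ratio of 2. Of these, 100% were called, and of the unchanged genes 0%. The planted size lay above the bound, and noise was drawn independently for each gene and cell, without tags. The simulation therefore does not cover genes whose reads lie mostly in a few cells or in 1 tag. Named genes were the 7 factors, up to 4 genes a list with the highest levels or the largest ratios past the bound, and the 5 genes most similar to *TBXT* or *SOX9*. Further genes, named to complete a count or to describe the cells with *FOXA2*, were chosen after their values were seen. The factors, lists and cutoffs were chosen with earlier results of these data known. Python 3.11.15, numpy 2.4.6, scipy 1.17.1, pandas 2.3.3 and matplotlib 3.10.9 were used. Alternatives were other *KRT19* cutoffs (20 or more reads, other cells with 0 reads), limits on cells, thinning, detection from 5 reads, the mean of log2(rpm + 1), scaling by the median ratio, a filter at 2% and each tag left out.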

Additional observations from a re-analysis of the deposited data

Results flagged for a closer look

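The 42 cells called doublets by their tags and the 7 cells with no tag detected enter no comparison. Reads of some of the factors were found in them above the share that a count of 0 allows, 7.14% and 42.9%. Passing that limit means only that more than 3 cells had a read. Among the kept other cells, *TBXT* had a read in 10.3% and *FOXA2* in 7.83%. In those cells *SOX9* had a read in 82.1%, *SOX5* in 85.3% and *SOX6* in 53.5%. In doublets *TBXT* had a read in 9.52% of cells, *FOXA2* in 9.52%, *SOX9* in 83.3%, *SOX5* in 66.7% and *SOX6* in 50%, and none had 5 *TBXT* or 5 *FOXA2* reads. In untagged cells *SOX9* had a read in 85.7%, *SOX5* in 100% and *SOX6* in 57.1% of the 7 cells. *TBXT* (14.3%) and *FOXA2* (28.6%) lay below the limit in untagged cells, and *NOTO* had no read in either set.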

How the results depend on the processing

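No paired analysis was possible because the labels give no replicate numbers and pair no tag with a sample, and ratios within tags are given in its place. Over 11 alternatives the log2 ratio kept its sign for *TBXT* (7.82 to 10.21), *FOXA2* (−3.96 to −0.14), *SOX9* (0.76 to 2.51), *SOX5* (−0.66 to −0.14) and *SOX6* (0.23 to 0.78), and *NOTO* gave no ratio. Alternatives for *FOXA1*, not analysed here, were not run. *TBXT* passed the bound in 11 of 11, *SOX9* in 10 (not without A952, which leaves 1 factor higher) and *FOXA2* in 10 (not on the mean of log2(rpm + 1)). The share of other cells with a *SOX* gene was 91.3% at 50000 reads per cell, 80.5% from 5 reads and 96.2% without A954, and that of notochordal cells with *TBXT* and a *SOX* gene was 79.3% from 5 reads. On the mean of log2(rpm + 1), 1645 genes in place of 3344 passed the bound between notochordal and other cells, with 56.2% of them higher in place of 67.8%, and scaling by the median ratio gave 53.1%. Between notochordal cells with and without *TBXT*, 3464 genes passed (71.0% higher), against 1242 on the mean of logs (97.2%), 5561 with the filter at 2% and 5674 without A952, and 58.0% were higher after scaling by the median ratio. The cause was not tested. With the notochordal cell with most reads left out, added after the data were seen, the *SOX6* ratio turned in A954 (1.02 to −1.64). For *FOXA2* in other cells, added after the data were seen, the share was 1.64% from 20 reads and 1.94% to 2.63% with 1 tag left out. A count of 0 among 363 cells allows a share of up to 0.826% by the limit of 3 cells, and A953 and A954 hold too few notochordal cells to set an order.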
